A study of Saccharomyces cerevisiae with 328 samples.

Results

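Deletions of Hsp70 and Hsp90 cochaperones in budding yeast, Saccharomyces cerevisiae, are described here, in the strains labelled YNL064C (YDJ1), YJR032W (CPR7) and YHR034C (PIH1). They were picked by the function of the deleted gene, not by a rule on measured values, but earlier results of these data were known. They are 3 of the 328 single deletion strains profiled. Each strain lacks 1 gene and has 1 library of polyA RNA, and its values are log2 ratios to the wild type strain, taken from cells in exponential growth. All other deletions, which each lack a different gene, were the reference, so a difference below is the strain's log2 ratio minus the mean log2 ratio of those strains. The labels used here do not state the strain background, mating type or medium, nor whether strains came from separate cultures.

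Hsp70 and Hsp90 are the main ATP-driven chaperones of the cytosol. J proteins such as Ydj1 hand unfolded clients to Hsp70 and start its ATP hydrolysis. Hsp90 receives clients from Hsp70 and works with cochaperones such as Cpr7, a cyclophilin with a tetratricopeptide repeat that binds the Hsp90 tail, and Pih1, a subunit of the R2TP complex, which links Hsp90 to the assembly of box C/D small nucleolar ribonucleoproteins and of the large PIKK kinases. In yeast, both chaperones also hold back the heat shock factor Hsf1, whose targets include most cytosolic chaperone genes.

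In brief, 9 of 4435 genes (0.203%) rose in the YDJ1 deletion. They include 2 of 24 listed Hsf1 targets, the Hsp70 gene SSA1 and the disaggregase gene HSP104, and 2 of 9 genes listed for calcineurin, CMK2 and RCN1. The library labelled CPR7 had 1 gene, PEX21, below the other strains past the threshold. The PIH1 deletion had none in either direction, low values of general stress genes, and a lowered chromosome I. Tests used limma with Benjamini-Hochberg adjustment over all genes tested and a threshold of 0.05. A lone library has no spread of its own, so each strain was assumed to vary like the other deletions, and p-values measure the spread between strains only. Because RNA came from whole cultures, fewer cells of a kind and less RNA per cell cannot be told apart.

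The deleted gene itself checks the labels. YDJ1 (chromosome XIV, 505868 to 507097) had a log2 ratio of -4.72 in the YDJ1 deletion, -0.13 in the library labelled CPR7 and -0.22 in the PIH1 deletion, against -1.06 to 1.04 (median -0.28) in the other deletions. It was the lowest of 328 strains, far below the rest, with a difference of -4.47 ± 0.37 (SE; limma adjusted p = 7.03e-25). PIH1 (chromosome VIII, 176965 to 177999) stood at -1.65 in its own strain, at -0.43 in the YDJ1 deletion and at -0.63 in the library labelled CPR7, against -1.56 to 1.30 (median -0.41) elsewhere. That was the lowest of the strains with a value, only just below the next, and its difference of -1.25 ± 0.50 did not pass (limma adjusted p = 0.998). CPR7 (chromosome X, 491081 to 492262) was at -0.73 in the library labelled CPR7, at -0.43 in the YDJ1 deletion and at 0.07 in the PIH1 deletion, against -2.30 to 1.22 (median -0.43) in the others. It was not lowered: 99 other strains had less CPR7 mRNA. So did 21 of the 77 others in its library batch, a group found here from the values and not named by any label. The sample is therefore called the library labelled CPR7, and every result for it rests on a label that its deleted gene does not bear out.

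The open reading frame beside CPR7 did stand out in that library. GEA1 (YJR031C, chromosome X, 486586 to 490812), an exchange factor for Arf GTPases in Golgi traffic, was at -0.98 there, -0.30 in the YDJ1 deletion and 0.21 in the PIH1 deletion, against -1.53 to 1.78 (median 0.32) elsewhere. It was the second lowest of 328 strains, with a difference of -1.31 ± 0.37 (limma adjusted p = 0.336) that passed once library batches were a term of the fit (-1.50 ± 0.33, limma adjusted p = 0.0133). No other tested neighbour of a deleted gene passed. AQR1, beside YDJ1, encodes a plasma membrane transporter and was at -1.76 in the YDJ1 deletion, 22nd lowest of 326. MTQ1, on the other side of YDJ1, encodes a methyltransferase and was at -0.13 there, with a difference of 0.33. YHR033W, beside PIH1, was at 0.04 in the PIH1 deletion, with a difference of -0.26.

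**Figure D1:**
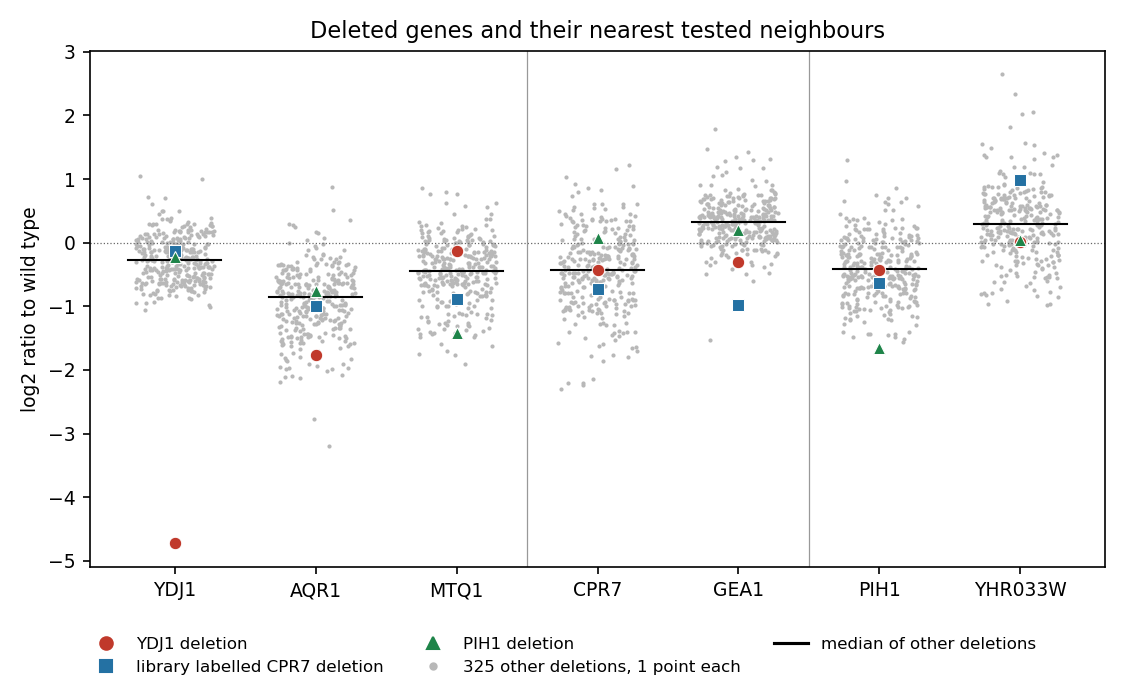
Log2 ratio to wild type of the 3 deleted genes and their tested neighbours. Grey points are the other deletions, black lines their medians, and coloured symbols the 3 cochaperone strains. YDJ1 at -4.72 lies far below all other strains, PIH1 at -1.65 just below them, and CPR7 at -0.73 within them.

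The values of all 328 libraries were split into 4 batches by a mixture model. The labels do not name them, and their origin, technical or biological, is unknown. The Bayesian information criterion was lower, which is better, for 5 batches (6767.8) than for 4 (6846.6). The YDJ1 deletion was in a batch of 80 strains, the PIH1 deletion in one of 73 and the library labelled CPR7 in one of 79, and the batches took 39% of the variance between strains. Values with batches as a term are given beside the pooled ones where a call changed. In the YDJ1 deletion 2.59% of genes were at least 2-fold above the mean of the other deletions and 2.66% at least 2-fold below. The library labelled CPR7 had 2.94% above and 2.35% below. In the PIH1 deletion 2.6% were below and only 3 genes above (0.0674%), where the other deletions had a median of 47 genes above and 78 below. The median difference over all genes tested was 0.00 in the YDJ1 deletion, 0.16 in the library labelled CPR7 and -0.11 in the PIH1 deletion, with 2222 of 4435, 2782 of 4427 and 1714 of 4454 genes above 0. The median in the library labelled CPR7 was -0.0043 with batches as a term, with 2195 genes above 0, and in the PIH1 deletion it stayed at -0.11. List medians of these 2 strains are therefore also given after centring each strain on its own median.

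Taken as 1 group, the 3 strains had no shared change that passed the threshold, which does not show that none is shared. Of 4499 genes tested, 1 passed (0.0222%), YDJ1 itself, at -1.44 ± 0.24 (limma adjusted p = 3.43e-05), which is the deleted gene of 1 strain. An unadjusted p under 0.05 was found for 93 genes (2.07%). Without the YDJ1 deletion no gene passed and the YDJ1 difference was 0.08. Without the PIH1 deletion 2 genes passed, YDJ1 and CMK2.

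Singly, the YDJ1 deletion had 12 of 4435 genes past the threshold (0.271%), 9 of which rose (0.203%) and 3 of which fell (0.0676%), one of them YDJ1. With batches as a term 25 passed (0.564%), 18 higher and 7 lower, and these held all 12. The 9 that rose were SSA1, HSP104, CMK2, RCN1, PUN1, PLB1, YOR385W, CIT2 and DLD3.

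Promoters of the heat shock genes are shown because the letters of the Hsf1 site, the heat shock element, can be read in them. The element was searched as GAANNTTCNNGAA, which on the other strand reads TTCNNGAANNTTC, in the 500 bases before each start codon. Adjoining matches can overlap. Of 6000 promoters, 1.48% held a match, and of the 24 listed Hsf1 targets 13 did. Matches are in capitals below, from the R64 genome of RefSeq, 5′ to 3′ on the strand of the gene.
SSA1 (chrI:141660-141815, minus strand): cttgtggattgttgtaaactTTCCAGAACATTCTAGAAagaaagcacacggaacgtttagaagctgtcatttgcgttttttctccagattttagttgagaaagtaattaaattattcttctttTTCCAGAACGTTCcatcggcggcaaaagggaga
SSA2 (chrXII:97686-97738, minus strand): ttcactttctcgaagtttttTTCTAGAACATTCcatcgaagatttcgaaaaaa
HSP104 (chrXII:88301-88358, plus strand): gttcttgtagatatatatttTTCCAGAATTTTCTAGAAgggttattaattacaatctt
BTN2 (chrVII:772090-772147, plus strand): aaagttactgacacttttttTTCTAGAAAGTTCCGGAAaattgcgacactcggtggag
SIS1 (chrXIV:619867-619929, minus strand): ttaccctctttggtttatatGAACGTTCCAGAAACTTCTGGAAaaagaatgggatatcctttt
All lie within 500 bases of the start codon. No match lay in the same window before HSP82, HSP26 or SSA4, which says only that these exact letters are absent there.

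Hsp70 genes of the Ssa family encode the general cytosolic Hsp70, the partner of Ydj1. SSA1 (YAL005C, chromosome I, 139503 to 141431) had log2 ratios of 1.57 in the YDJ1 deletion, 0.19 in the library labelled CPR7 and -1.21 in the PIH1 deletion, against -1.26 to 1.35 (median -0.17) in the other deletions. The YDJ1 deletion was the highest of 328 strains and the PIH1 deletion the second lowest, and the SSA1 rise was 1.74 ± 0.40 (limma adjusted p = 0.00942). SSA1 lies on chromosome I, whose median was shifted by 0.19 in the YDJ1 deletion and by -0.45 in the PIH1 deletion. SSA2, the constitutive copy, was at 0.29 in the YDJ1 deletion, -1.57 in the library labelled CPR7 and -0.98 in the PIH1 deletion, against -2.04 up to the wild type level (median -0.95) elsewhere. The YDJ1 deletion was the highest strain for SSA2, but the difference of 1.27 ± 0.37 did not pass (limma adjusted p = 0.147). SSA1 and SSA2 are near-identical, and how shared reads were counted is not stated, so the split between them is uncertain. Heat-inducible SSA4 was at 1.14, 9th highest of 326, with a difference of 1.29 ± 0.66 that did not pass (limma adjusted p = 0.824). Over the list of 9 cytosolic Hsp70 genes, 1 rose, against 0.203% of all genes tested. Of the differences 6 were above 0, and the median was 0.58.

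Among J proteins, the sister of YDJ1 is SIS1, which is essential and shares part of its work on Hsp70. SIS1 stood at 1.12 in the YDJ1 deletion, 0.39 in the library labelled CPR7 and 0.13 in the PIH1 deletion, against -0.92 to 1.34 (median 0.15) elsewhere. The YDJ1 deletion ranked 5th of 328 strains, with a difference of 1.04 ± 0.45 (limma adjusted p = 0.734). Over 19 tested J protein genes the median difference was -0.01, with 9 above 0 and 10 below, and the deleted gene was the only one past the threshold. The 7 nucleotide exchange factors of Hsp70 had a median of 0.07 (-0.10 with batches as a term), and none passed.

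Disaggregase and small heat shock protein genes were the highest list of all in the YDJ1 deletion. HSP104 (YLL026W, chromosome XII, 88623 to 91349) encodes the disaggregase that pulls proteins out of aggregates together with Hsp70 and Ydj1. Its log2 ratio was 1.56 in the YDJ1 deletion, 0.38 in the library labelled CPR7 and -0.77 in the PIH1 deletion, against -1.50 to 1.68 (median -0.12) elsewhere. Only the CHO2 deletion, which lacks a phosphatidylethanolamine methyltransferase, was higher, and the rise was 1.64 ± 0.40 (limma adjusted p = 0.0232). HSP26, a small heat shock protein gene, had the largest positive difference of any gene tested, 3.32 ± 1.11, from a value of 3.06 against -2.92 to 4.41 in the others. It did not pass (limma adjusted p = 0.279), and 4 strains were higher. HSP42, the other small heat shock protein, was at 2.25 against -1.51 to 2.66, 5th highest. HSP31, a stress-inducible chaperone and glyoxalase gene, differed by 1.24, and HSP12, a membrane-bound small heat shock protein gene, went the other way with a difference of -1.20. The list median in the YDJ1 deletion was 1.61 over these 5 tested genes, of which HSP104 alone passed. This was also the highest list in the library labelled CPR7, with a median of 0.92 (0.79 centred, 0.43 with batches as a term). All 5 genes were above 0 there, with and without batches as a term. In the PIH1 deletion the median was -0.69 (-0.57 centred, -0.66 with batches as a term). All 5 genes were below 0 there, but only 4 with batches as a term. No member passed in either of these strains.

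Hsp90 itself is encoded by HSP82, the heat-inducible gene, and by the near-identical HSC82, and the split between them is uncertain for the same reason as above. HSP82 was at 1.55 in the YDJ1 deletion, 0.81 in the library labelled CPR7 and -0.32 in the PIH1 deletion, against -1.16 to 1.65 (median -0.09) elsewhere. It ranked 3rd of 328, did not pass in the pooled fit (1.55 ± 0.52, limma adjusted p = 0.291) and passed with batches as a term (1.65 ± 0.38, limma adjusted p = 0.0096). HSC82 was at -0.05, 46th of 328, which was 0.53 above the mean of the other deletions. Of 12 Hsp90 cochaperone genes none passed, and their median difference was 0.08, with 8 above 0, 4 below and a lowest of -0.87. Among those above 0, STI1, which bridges Hsp70 and Hsp90, differed by 0.66. CPR6, the sister of CPR7, differed by 0.91, and AHA1, the activator of the Hsp90 ATPase, by 1.07.

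Seen as a list, the 24 Hsf1 targets had a median difference of 0.97 in the YDJ1 deletion, against 0.00 over all genes. Of them 22 were above 0, and 14 had the YDJ1 deletion among the 10 highest of all strains, where 3.97% of all genes did. HSP104 and SSA1 rose, and YDJ1, itself a listed target, fell as the deleted gene. With batches as a term BTN2 and HSP82 passed too, and the list median was 0.84. BTN2, which gathers misfolded proteins into deposits, was at 2.46 against -1.61 to 2.95, and its pooled difference of 2.02 ± 0.53 was just outside the threshold (limma adjusted p = 0.0608). By list median the YDJ1 deletion ranked second of 328 strains, behind the CHO2 deletion at 1.08 and ahead of the KRE28 deletion at 0.65. For 9 of the 23 listed targets other than YDJ1, the CHO2 deletion was the highest of the other strains. The same list had a median of 0.36 in the library labelled CPR7 (0.23 centred), where 19 of 24 genes were above 0. That median was 0.084 with batches as a term, with 14 above 0. In the PIH1 deletion it was -0.07 (0.04 centred), and no member passed in either strain.

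**Figure D2:**
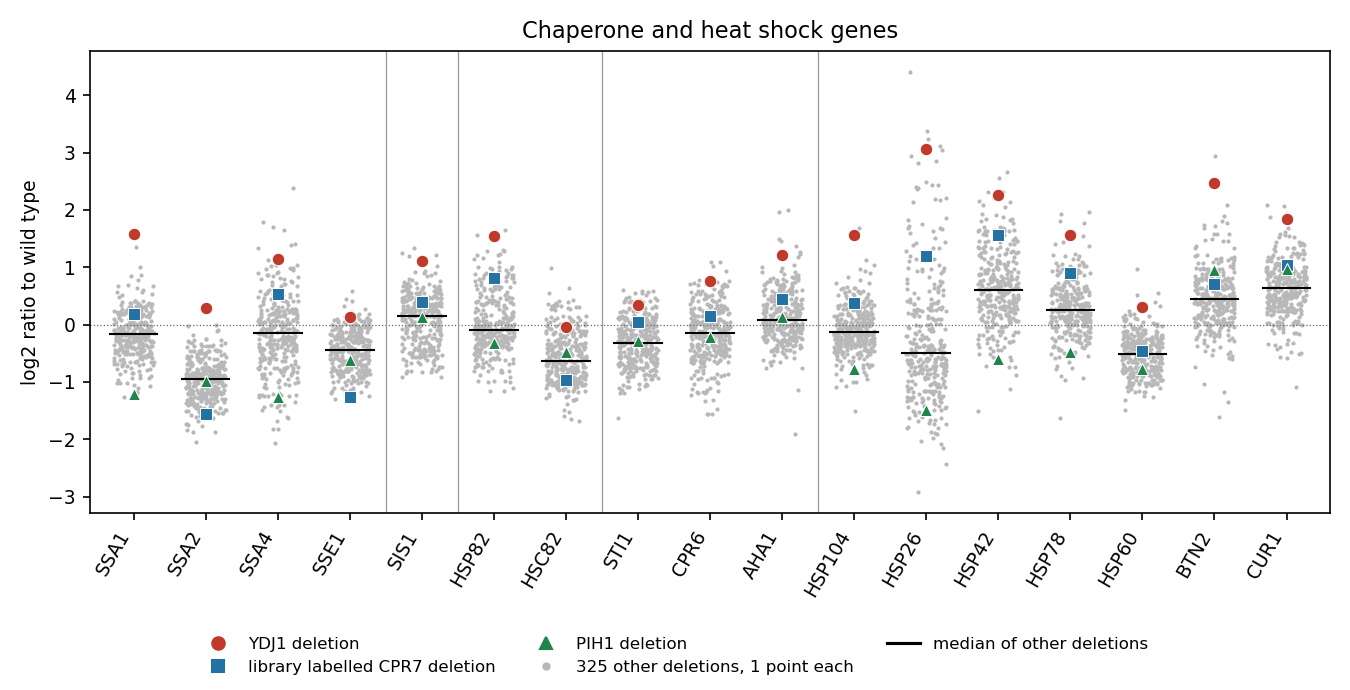
Log2 ratio to wild type of chaperone genes, grouped by vertical lines into Hsp70 and its exchange factor SSE1, the J protein SIS1, Hsp90, Hsp90 cochaperones, and other heat shock genes. The YDJ1 deletion (red) is at or near the top for many of these genes, with 1.57 at SSA1, 1.56 at HSP104 and 3.06 at HSP26. The PIH1 deletion (green) is near the bottom for SSA1 at -1.21.

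Genes of calcium signalling gave some of the clearest rises in the YDJ1 deletion. CMK2 (YOL016C, chromosome XV, 294777 to 296120), a calmodulin-dependent kinase, was at 2.89, 0.81 and -0.44 in the YDJ1 deletion, the library labelled CPR7 and the PIH1 deletion, against -1.25 to 2.09 (median 0.11) elsewhere. It was the highest of all strains and rose by 2.76 ± 0.53 (limma adjusted p = 0.000403). RCN1 (YKL159C, chromosome XI, 153816 to 154451), the calcipressin that binds and regulates the phosphatase calcineurin, was at 2.23, -0.17 and -1.08 in the same order, against -1.34 to 1.10 (median -0.25). RCN1 was more than 1 log2 unit above any other strain and rose by 2.50 ± 0.50 (limma adjusted p = 0.000903). PMC1, the vacuolar calcium pump, was highest of all strains too, at 1.11 against -1.64 to 1.02, but its difference of 1.29 ± 0.43 did not pass (limma adjusted p = 0.277). The phosphatase genes CNA1, CMP2 and CNB1 differed by 0.25 to 0.41, the transcription factor gene CRZ1 by -0.01 and the sodium pump gene ENA1 by -0.28. Of the 9 genes in this list 2 rose, against 0.203% of all genes tested. Differences were above 0 for 7 of them, and the median was 0.26 (0.41 with batches as a term).

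The site of Crz1, the transcription factor that calcineurin activates, was searched as GNGGCGCA or GNGGCTCA on both strands of the same 500 bases. A match was found in 3.72% of 6000 promoters, in 1 of the 9 calcineurin list genes (PMC1) and in 3 of the 9 genes that rose (YOR385W, DLD3 and HSP104). The PMC1 and YOR385W windows are shown because both genes were at their highest in the YDJ1 deletion, with the match in capitals; in PMC1 it is on the other strand. RCN1 and CMK2 had none.
PMC1 (chrVII:485758-485805, plus strand): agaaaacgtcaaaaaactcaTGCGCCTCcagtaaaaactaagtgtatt
YOR385W (chrXV:1064865-1064912, plus strand): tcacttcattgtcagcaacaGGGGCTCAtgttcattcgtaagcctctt

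A further 3 genes that rose act at the cell surface or have no known role. PUN1 (YLR414C, chromosome XII, 953353 to 954144), a plasma membrane protein of the cell wall stress response, was at 2.67 in the YDJ1 deletion, 0.16 in the library labelled CPR7 and 0.02 in the PIH1 deletion, against -1.95 to 1.92 (median 0.12). Its rise was 2.51 ± 0.46 (limma adjusted p = 0.000229). PLB1 (YMR008C, chromosome XIII, 280590 to 282584), a phospholipase B, was at 2.53, 0.72 and -1.04 in the same order, against -2.01 to 1.77 (median -0.14), and rose by 2.67 ± 0.64 (limma adjusted p = 0.015). YOR385W (chromosome XV, 1065043 to 1065915), of unknown function, was at 3.39, 1.04 and 0.13, against -0.73 to 2.54 (median 0.65), and rose by 2.75 ± 0.56 (limma adjusted p = 0.000992). In all 3 the YDJ1 deletion was the highest strain, with no overlap with the others. The cell wall integrity list of 11 tested genes had a median of 0.56, the 10th highest of 328 strains, and none passed. Its member GSC2, an inducible glucan synthase subunit, was at 3.19, below only the CHO2 deletion at 3.26, with a difference of 3.08 ± 0.88 (limma adjusted p = 0.143). GSC2 passed only in the fit kept to the 73 strains tabulated with the YDJ1 deletion. The wall mannoprotein gene CWP1, a member, went the other way at -2.06, second lowest, and did not pass in the pooled fit (difference -2.37). CWP1 fell past the threshold with batches as a term (-2.17 ± 0.58, limma adjusted p = 0.0432). It also did so after centring (-2.36) and in the fit kept to those 73 strains (-2.44).

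The last of the genes that rose were CIT2 and DLD3, for which no list was made. CIT2 (YCR005C, chromosome III, 120946 to 122328), the peroxisomal citrate synthase, was at 4.89 in the YDJ1 deletion, 1.74 in the library labelled CPR7 and 0.95 in the PIH1 deletion, against -0.05 to 4.19 (median 1.71). The YDJ1 deletion was the highest strain, and CIT2 rose by 3.10 ± 0.62 (limma adjusted p = 0.000903), the largest of the 9. DLD3 (YEL071W, chromosome V, 16355 to 17845), a cytosolic lactate dehydrogenase that, with CIT2, is a textbook target of the retrograde factors Rtg1 and Rtg3, was at 2.74, -0.09 and -0.15, against -1.68 to 2.72 (median 0.02). DLD3 was only just above the SWI6 deletion, and rose by 2.71 ± 0.61 (limma adjusted p = 0.00742). In the respiration and TCA cycle list, 3 genes of early TCA cycle steps, picked by their rank, did not pass: IDH1 was at its highest of all strains with a difference of 1.44, IDH2 2nd of 328 with 1.10, and CIT1 3rd with 1.22. ACO1, aconitase, passed with batches as a term only (1.53 ± 0.35, limma adjusted p = 0.0087). Of 43 tested respiration and TCA cycle genes 40 were above 0, with a median of 0.40.

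**Figure D3:**
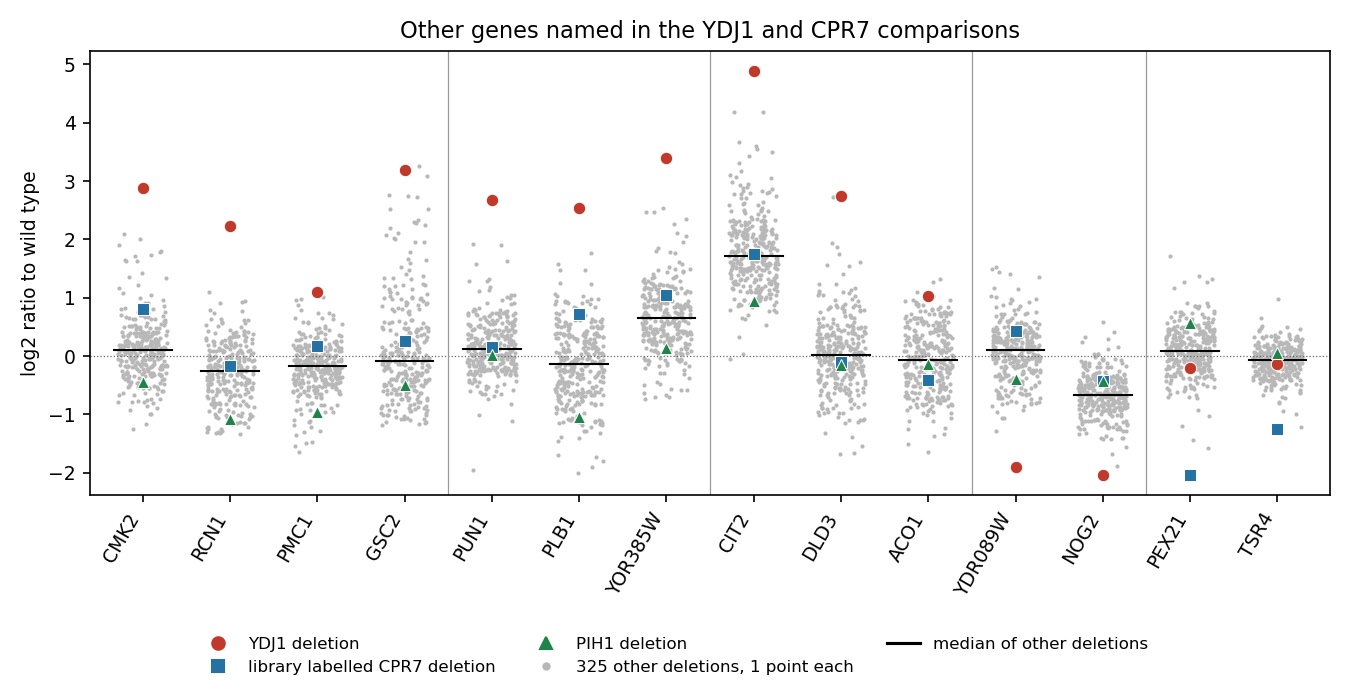
Log2 ratio to wild type of other named genes, set apart by vertical lines: calcium signalling genes and GSC2, cell surface and unknown, the metabolic genes CIT2, DLD3 and ACO1, genes that fell in the YDJ1 deletion, and genes low in the library labelled CPR7. The YDJ1 deletion (red) stands above all other strains at CMK2 (2.89), RCN1 (2.23), PUN1 (2.67) and CIT2 (4.89), and the library labelled CPR7 (blue) below them at PEX21 (-2.04).

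Only 2 genes besides YDJ1 fell in the YDJ1 deletion. YDR089W, named VTC5 in RefSeq (chromosome IV, 622112 to 624721), a subunit of the vacuolar polyphosphate polymerase, was at -1.89, 0.43 and -0.40 in the YDJ1 deletion, the library labelled CPR7 and the PIH1 deletion, against -1.29 to 1.52 (median 0.10), and fell by 1.97 ± 0.47 on the log2 scale (limma adjusted p = 0.015). NOG2 (YNR053C, chromosome XIV, 721120 to 723112), a GTPase of large subunit maturation, was at -2.04, -0.43 and -0.42, against -1.88 to 0.59 (median -0.66), and fell by 1.38 ± 0.36 (limma adjusted p = 0.0486). Both were the lowest of 328 strains. NOG2 was the only one of 99 tested ribosome biogenesis genes to pass, while 84 of the 99 were below 0 and the median was -0.34. With batches as a term RPO26, a subunit common to RNA polymerases I, II and III, passed as lower (-0.79 ± 0.21, limma adjusted p = 0.0432), though not with batches and centring together (limma adjusted p = 0.07), and so did RRN11, of the RNA polymerase I core factor, and TRM11, a tRNA methyltransferase. RPO26 was at -0.51, the lowest of all strains.

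Across all lists with tested genes, 6 of 29 had a member past the threshold in the YDJ1 deletion (the J protein list only through YDJ1). Among the 10 highest of 328 strains were 7 list medians: cytosolic Hsp70, Hsp90, disaggregase and small heat shock protein, Hsf1 target, glycolysis, respiration and TCA cycle, and cell wall integrity. The lists share genes, so these counts are not independent: SSA1, HSP104, HSP82 and YDJ1 are in the Hsf1 target list and also in a list of their own family. Glycolysis had a median of 0.67 over 18 genes with 16 above 0 and none past the threshold. The general stress list of 29 Msn2 and Msn4 targets had a median of 0.24 with 17 above 0, and of 0.43 with 20 above 0 when batches were a term, and HSP12, a much used marker of that response, was at -0.54, 30th lowest of 328.

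In the library labelled CPR7, 1 of 4427 genes passed (0.0226%). PEX21 (YGR239C, chromosome VII, 969187 to 970053), a coreceptor for import of proteins into peroxisomes, was at -2.04, against -0.20 in the YDJ1 deletion, 0.57 in the PIH1 deletion and -1.58 to 1.71 (median 0.08) in the others. It was the lowest strain and fell by 2.14 ± 0.42 on the log2 scale (limma adjusted p = 0.00279). With batches as a term 3 genes passed (0.0678%): PEX21, GEA1, and TSR4 (YOL022C), an assembly factor of the small ribosomal subunit, at -1.25 against -1.21 to 0.97, also the lowest strain (-1.25 ± 0.26, limma adjusted p = 0.00405). No gene of any of the 29 lists passed. The median of the 7 Hsp70 nucleotide exchange factors, which let Hsp70 release ADP and client, was -0.38 (-0.51 centred, -0.13 with batches as a term), the 9th lowest of 328 strains, and 5 of the 7 were below 0. Among them SSE1, the main cytosolic one, was at -1.27, second lowest. LHS1 and SIL1, of the endoplasmic reticulum, were at log2 ratios to wild type of -1.90 and -1.27. Differences from the other strains among the 7 genes ran from -1.16 to 0.545, so -1.90 for LHS1 is not its difference from them. The general stress list had a median of 0.76 (0.63 centred), with 27 of 29 genes above 0 and rank 26 of 328, and the median was 0.49 with batches as a term. HSP82 at 0.81 was 32nd of 328, and within its batch it lay between -0.21 and 1.56 (median 0.64).

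No gene of 4454 passed in the PIH1 deletion in limma (0.0%), and 2.29% had an unadjusted p under 0.05. The nearest list to its known work, R2TP, has 4 genes; besides PIH1, TAH1, its partner, differed by 0.20 and the AAA+ ATPase genes RVB1 and RVB2 by 0.38 and 0.06. Box C/D small nucleolar ribonucleoprotein genes had a median of -0.05 over 6 genes (0.067 centred), box H/ACA genes one of 0.27 over 6 (0.38 centred), and PIKK and TTT genes one of -0.09 over 8 (0.022 centred), beside -0.11 over all genes (0.0019 centred). The sign for box C/D and for PIKK and TTT genes thus depended on the centring. Ribosome biogenesis had a median of 0.30 (0.41 centred), with 85 of 99 genes above 0, rank 17 of 328. The general stress list went the opposite way, with a median of -0.99 (-0.87 centred, -0.77 with batches as a term), all 28 genes with a value below 0, and the 12th lowest of 328 strains. Outside the list, and named after their values were seen, 2 genes went the same way. RGI1, of respiratory growth, was at -1.24 against -1.27 to 4.50 elsewhere and ranked second lowest, while in the library labelled CPR7 it was at 2.79, 15th highest. TDH1, a stress-regulated glyceraldehyde-3-phosphate dehydrogenase with close copies in TDH2 and TDH3, was at -1.74 against 2.56 in the YDJ1 deletion and 2.13 in the library labelled CPR7, with -2.19 to 3.71 (median 0.24) in the others.

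**Figure D4:**
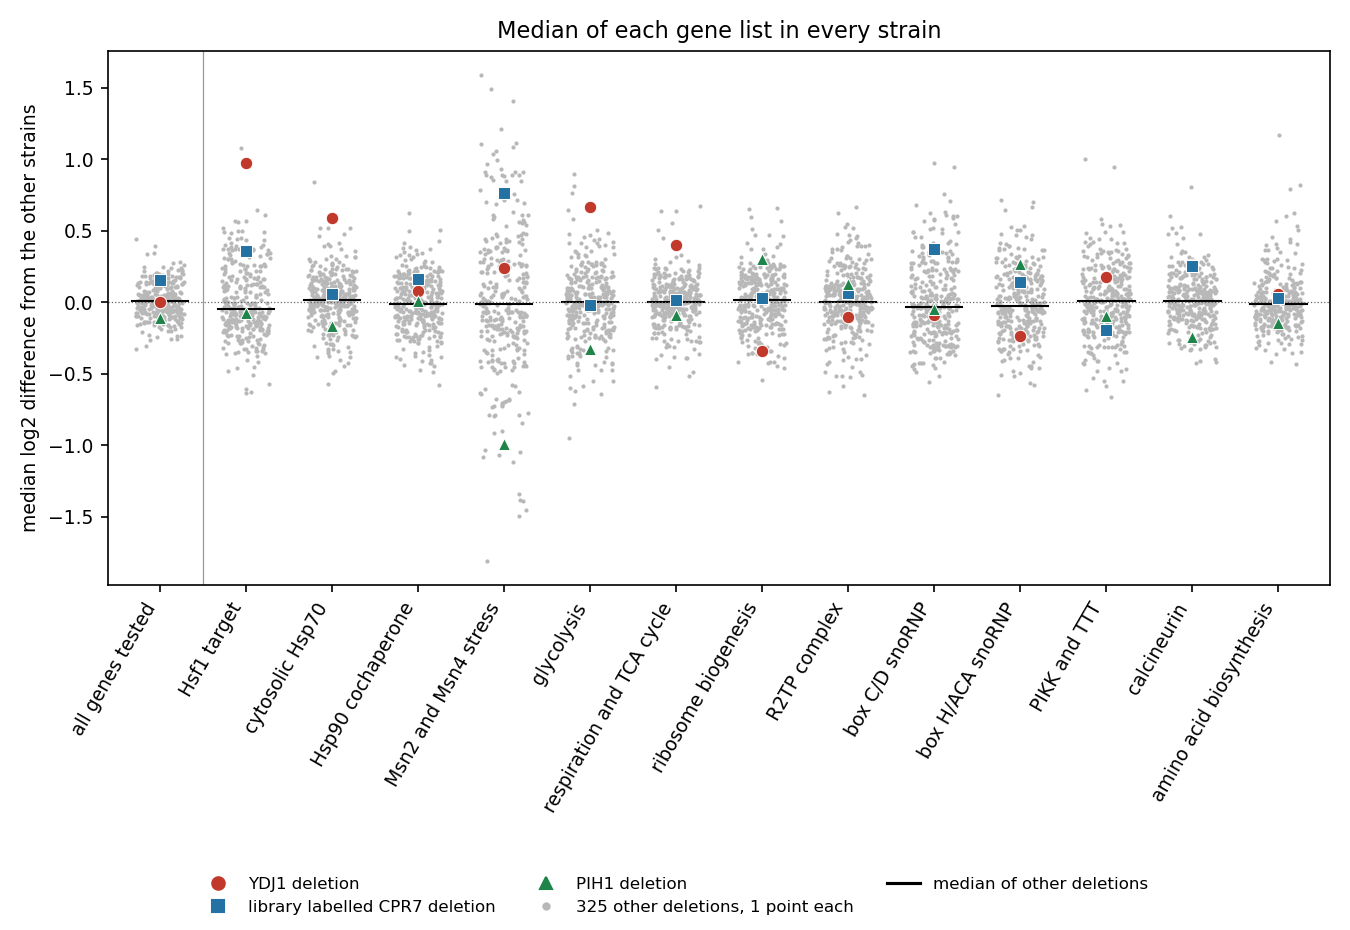
Median log2 difference of each gene list from the other strains, 1 point per strain. The YDJ1 deletion (red) is near the top for Hsf1 targets at 0.97 and glycolysis at 0.67. The PIH1 deletion (green) is near the bottom for Msn2 and Msn4 stress genes at -0.99.

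Chromosome I was lowered in the PIH1 deletion. Relative to the strain's other chromosomes its median was shifted by -0.45, the lowest of 328 strains, and the next was the NUP120 deletion at -0.25. Of 60 genes with a value 55 (91.7%) were below the mean of the other deletions, against 61% of the genes on the other chromosomes. The lowering ran along the whole chromosome, with medians of -0.58, -0.38 and -0.70 in 3 stretches of 20 genes from left to right. PIH1 itself is on chromosome VIII. DNA content was not measured. SSA1, at -1.21 in this strain, lies in the last of these stretches. Without the genes of chromosome I still no gene passed in limma (0.0%; 96 at an unadjusted p under 0.05, 2.18%).

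**Figure D5:**
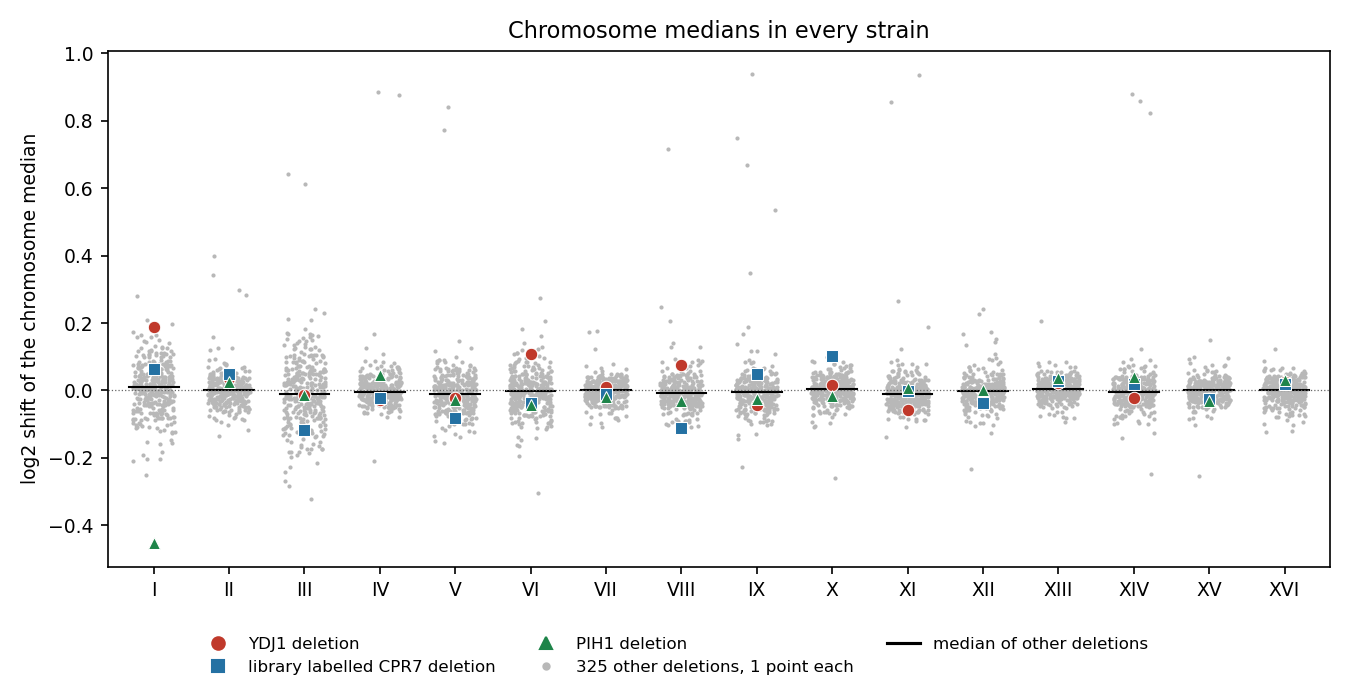
Shift of each chromosome's median log2 ratio relative to the rest of the same strain, 1 point per strain. The PIH1 deletion (green) is lowest of all strains at chromosome I, at -0.45, and the YDJ1 deletion (red) is at 0.19 there.

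Set against each other, the strains differed in few genes. Between the YDJ1 and the PIH1 deletion 9 of 4398 genes passed (0.205%), 8 of them higher in the YDJ1 deletion (0.182%), SSA1, HSP104, CIT2, CMK2, RCN1, PUN1, PLB1 and YOR385W, and YDJ1 lower (0.0227%). SSA1 differed by 2.78 ± 0.56 (limma adjusted p = 0.00287), with the chromosome I medians of these strains apart in the same direction (0.19 and -0.45), and HSP104 by 2.32 ± 0.57 (limma adjusted p = 0.0325). Between the YDJ1 deletion and the library labelled CPR7, 1 of 4369 passed (0.0229%), YDJ1. There SSA1 differed by 1.39 ± 0.56 (limma adjusted p = 0.632) and CMK2 by 2.08 ± 0.74 (limma adjusted p = 0.498), so their response in the library labelled CPR7 is not shown to differ. With batches as a term 3 passed (0.0687%), since RCN1 (2.94 ± 0.64, limma adjusted p = 0.0142) and YOR385W (2.95 ± 0.70, limma adjusted p = 0.0463) were added. Between the library labelled CPR7 and the PIH1 deletion none of 4384 passed in limma (0.0%; 290 at an unadjusted p under 0.05, 6.61%), and PEX21 came nearest, at -2.62 ± 0.60 (limma adjusted p = 0.0661).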

How the data were processed

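PolyA RNA was extracted in 96 well plates and sequenced on an Illumina HiSeq, per the labels' protocols. The deposited values are log2 ratios to wild type, per the series design; the base is not written and was taken as 2, since whole-chromosome shifts reach 0.938. Bowtie is named in the submitters' processing notes. Its version, the genome build, the counting, any normalization and the depth are unstated in what was used here, so no interval that needs depth is given.

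The first table held 255 strains and the second 73, which has no gene column and was matched by position (r = 0.9787 between gene means). The 4499 genes measured in 80% or more of the strains (4419 matched to R64) were tested with limma 3.58.1 (R 4.3.3), as 3 strains against the rest, each strain against the rest, and 3 contrasts between strains. Batches came from a Gaussian mixture on 4 principal components (scikit-learn 1.9.0, 10 starts). Coordinates and sequences are from RefSeq (R64).

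The strains, the 30 gene lists and the tests were chosen with earlier results of these data known. Named genes were the deleted genes and nearest open reading frames, chaperone, Hsf1 and R2TP genes past the threshold, and in each strain the 8 largest rises and falls past it, with at most 4 passing members from any list; genes given by rank or as other list members were chosen after their values were seen. The fit was also run on the other deletions with known shifts added to strains picked at random. Its power for a lone library is not given here.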

Additional observations from a re-analysis of the deposited data

How the results depend on the processing

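The count for the 3 strains together was 1 in all settings that kept them, and 0 to 2 when 1 strain was left out; the YDJ1 difference then ran from -2.22 to 0.081, reversed without the YDJ1 deletion. In the YDJ1 deletion 12 genes became 25 with batches as a term, 28 with 5 batches, 25 with batches and centring, and 19 within its own table, and these settings kept all 12. Among genes with a value in every strain 8 passed, since CIT2, PLB1, RCN1 and YOR385W are not tested there. The library labelled CPR7 went from 1 to 3 with batches, with 5 batches, and with batches and centring, to 2 with centring, and to 0 among genes with a value in every strain, where PEX21 is not tested. The YDJ1 deletion against the library labelled CPR7 went from 1 to 3 with batches, with 5 batches, and with batches and centring, and to 2 with centring. The YDJ1 against the PIH1 deletion went from 9 to 5 among genes with a value in every strain, since the other 4 are not tested there. The library labelled CPR7 against the PIH1 deletion went from 0 to 2 with batches and with 5 batches, and to 1 with centring and with batches and centring. In the PIH1 deletion 0 passed in every setting run. For other changes the cause was not tested. Using 5 batches, batches with centring, and the table as a term for the group were chosen after seeing the data. No paired analysis was possible because the strains carry no replicate numbers in the labels.

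Limits: each strain has 1 library, depth is unknown, CPR7 mRNA was not lowered in the library labelled CPR7, and the strains lie in different batches. PIH1 mRNA in the PIH1 deletion was only just below the next strain and its difference did not pass, so that label is only weakly borne out.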

Other observations

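The PIKK and TTT list, with a small median, held single members far from the rest in the YDJ1 deletion. TEL2, a cochaperone of the PIKK kinases, differed by -1.30, while TRA1, a kinase-like scaffold of that family, differed by 0.91, and neither passed. In the library labelled CPR7 TEL2 differed by 1.07. SGT2, a cochaperone that passes tail-anchored proteins to the Get pathway, was at 0.46 in the YDJ1 deletion and passed with batches as a term only (0.81 ± 0.21, limma adjusted p = 0.0291). RCN2, a sister of RCN1, was at 2.12, 4th highest of 326 strains, and also passed only then (1.92 ± 0.51, limma adjusted p = 0.0432). These genes were chosen after their values were seen.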
